A study of Mus musculus with 6 samples.

Results

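Cytokine-induced primordial germ cell-like cells (cytokine PGCLCs) were compared here with mouse embryonic stem cells (mESCs) on Illumina mouse BeadChips, with 2 arrays per group. A member was any probe with a single gene name whose detection p-value, its rank among the negative control beads of the array, was below 0.01 on both arrays of either group. This rule chose 8698 probes, and 6417 of the 6823 genes tested in the whole series were read by such a probe. The qualifying detection p-value was 0.00962 for the 92 member probes nearest the threshold and 0.0107 for the 33 named probes just outside it. The cytokine PGCLCs were collected on day 4 after epiblast-like cells had been moved to GK15 medium with LIF (1000 U/ml), EGF (50 ng/ml), SCF (100 ng/ml) and the factors BMP4 and BMP8A (each at 500 ng/ml). A second PGCLC group of 2 arrays, Nanog PGCLCs, was induced on the same schedule by doxycycline (0.7 µg/ml), which switches on a Nanog transgene. The mESCs were grown in N2B27 medium with LIF (1000 U/ml), the GSK3 inhibitor CHIR99021 (3 µM) and the MEK inhibitor PD0325901 (1 µM), on fibronectin. All cells, controls included, were male, of a 129 x MF1 background and carried the Nanog transgene. The media of the groups differ in base, inhibitors and cytokines, so cell state and medium cannot be told apart in any value below. The labels do not state whether PGCLCs were sorted, and fewer cells of a type cannot be told apart from less RNA per cell. Nothing in the labels ties the replicates to separate cultures. The p-values therefore cover array-to-array variation, which may be technical alone.

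Primordial germ cells are the embryonic founders of sperm and eggs. In the mouse they arise from the epiblast next to the extraembryonic ectoderm, where BMP signals induce a small set of regulators that includes Prdm1, Prdm14 and Tfap2c. Stem cells kept in LIF with inhibitors of MEK and GSK3 resemble the naive epiblast before implantation, and epiblast-like cells lie between that state and the germ cell state. PGCLCs made from them are a culture model of germ cells that have just been specified.

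The labels were first set against marker genes. All 6 germ cell markers that could be tested, of 8 listed (Tfap2c, Nanos3, Dnd1, Dppa3, Kit and Prdm14) were higher in cytokine PGCLCs. Kit, the receptor for SCF, had a log2 intensity of 11.40 and 11.42 in cytokine PGCLCs, against 10.76 and 10.69 in mESCs, a change of 0.69 ± 0.10 (± SE of limma's fit, n = 2 arrays per group here and throughout, adjusted p = 0.000534). The Kit level of both Nanog PGCLC arrays, 10.80 and 10.63, lay close to that of mESCs. Of the 9 naive stem cell markers, 1 was higher (Klf2), 3 were lower and 5 were not called. Of 5 epiblast-like markers, 3 could be tested, with 0 higher, 1 lower and 2 not called. Of 7 mesoderm markers, only Kdr could be tested, and it was not called. Over all genes tested, 29.9% were higher and 24.8% lower. The probes of Nanos3 and Prdm14 were detected on 1 of the 2 mESC arrays. Markers of blood and endothelium were detected in cytokine PGCLCs and not in mESCs, so that the rule fixes their direction and it is no finding. These were the 3 embryonic globin genes Hba-x, Hbb-bh1 and Hbb-y and the endothelial adhesion gene Pecam1, while Tal1, Gata1 and Cdh5 were not among the genes tested. Pecam1 was also listed here as a naive pluripotency gene. It was detected on both Nanog PGCLC arrays, where the 3 globin genes were not detected. The summed log2 intensity of these 4 markers was 34.32 and 34.24 in cytokine PGCLCs and 23.91 and 23.43, at background, in mESCs. The same holds for the trophoblast marker Cdx2, at 8.51 and 8.43 in cytokine PGCLCs and 6.56 and 6.39, not detected, in mESCs, and 0 of 5 endoderm, 0 of 4 neural and 0 of 5 fibroblast markers were among the genes tested. The part of these cells in the results below was not tested.

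A single mESC array stood apart at the adult globin genes, which were picked out after their values were seen. Hba-a1, an adult alpha globin gene, had a log2 intensity of 8.81 and 8.95 in cytokine PGCLCs, 6.39 and 6.69 in Nanog PGCLCs, and 11.41 and 6.35 in mESC replicates 1 and 2. The adult beta globin gene Hbb-bs, whose probe was outside the member rule, had 7.07 and 6.77 in cytokine PGCLCs, 5.88 and 6.02 in Nanog PGCLCs, and 11.57 and 5.79 in mESCs. Hbb-bt, its neighbour, had 7.70 and 7.18 in cytokine PGCLCs, 6.06 and 6.27 in Nanog PGCLCs, and 11.57 and 6.22 in mESCs. The 3 genes were thus high in mESC replicate 1 and low in mESC replicate 2, whereas the embryonic Hba-x read 5.23 and 5.25 there. Hba-a1 was not called (log2 change -0.00 ± 1.26), but against mESC replicate 2 alone, which did not detect it, it was at least 3.29-fold higher in cytokine PGCLCs (adjusted p = 1.35e-05, with that lone array assumed to vary like the other groups). Only 5 of the 6823 genes differed at least 2-fold between the mESC replicates, against 0 between the cytokine PGCLC replicates and 2 between the Nanog PGCLC replicates. Log2 intensities across genes correlated at 0.994 between the cytokine PGCLC arrays, 0.994 between the Nanog PGCLC arrays and 0.991 between the mESC arrays (genes are not independent replicates).

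Of the genes tested, 54.7% were called in either direction. Over all genes tested, 2040 (29.9%) were higher and 1694 (24.8%) lower in cytokine PGCLCs at an adjusted p below 0.05 (limma, Benjamini-Hochberg over all genes), and 476 (6.98%) and 249 (3.65%) of them also differed at least 2-fold. Among the 6417 genes read by a member probe, 1959 were higher, 1642 lower and 2816 not called. With arrays scaled to a common median in place of quantile normalization, the share of called genes that were higher was 72.9%, against 54.6% here. The 5272 genes detected on all 4 arrays divided about evenly, with 1350 higher, 1386 lower and 2536 not called, and a median change of -0.033. Their changes were mostly small. The median absolute log2 change of these genes was 0.304, 1 in 10 exceeded 0.841 and 1 in 100 exceeded 1.610. The smallest called change was 0.237 and the largest change not called 0.757. The cytokine PGCLC and mESC arrays did not overlap in 78.9% of the genes tested. Of the 5272 genes, 9 were at least 4-fold higher and 7 at least 4-fold lower. Another 573 genes were not detected on either mESC array and 155 not on either cytokine PGCLC array, and since the rule let these in through the group where they are bright, their direction (490 higher and 83 not called, and 155 lower) is no finding.

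**Figure D1:**
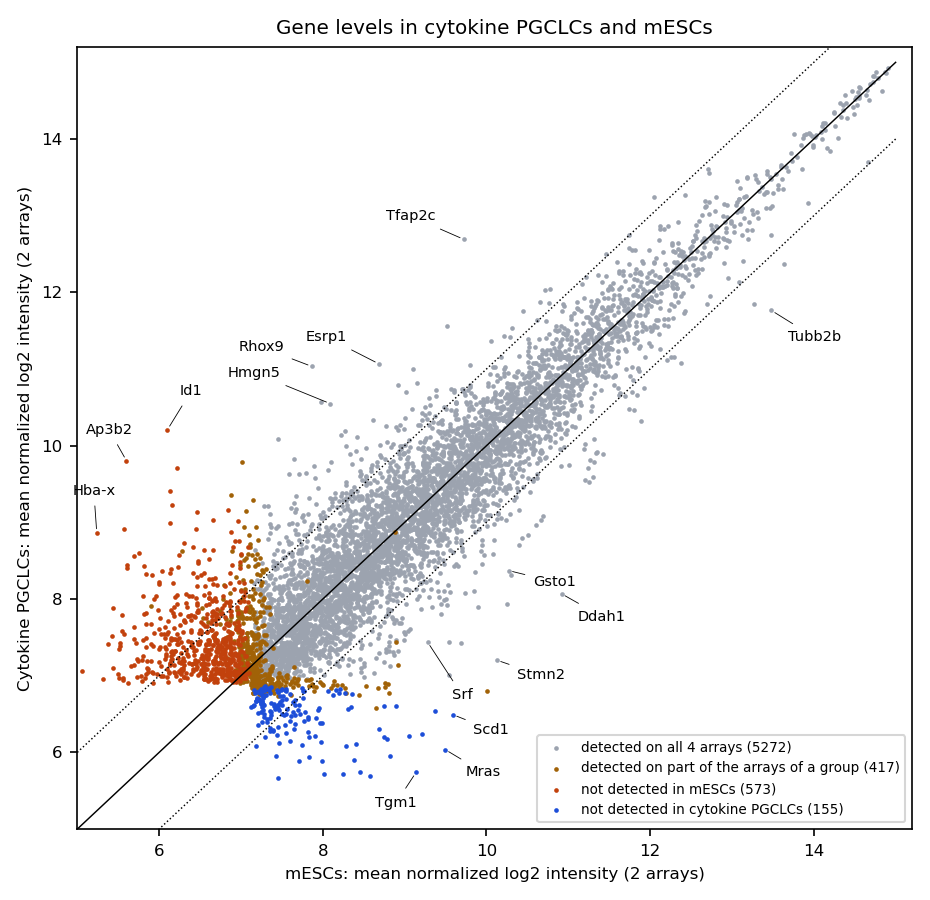
Mean normalized log2 intensity of the 6417 genes in cytokine PGCLCs (vertical axis) against mESCs (horizontal axis), each the mean of 2 arrays and coloured by detection. The solid line marks equal levels and the dotted lines 2-fold differences. Most of the 5272 genes detected on all 4 arrays lie between the dotted lines, and Tfap2c, Rhox9 and Ddah1 lie far outside them.

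The largest increases among genes detected on all 4 arrays included genes of transcription, splicing and trafficking beside germ cell genes. Beside the homeobox gene Rhox9 (log2 change 3.17) and Tfap2c (2.97), the list of 20 held Sgip1, an adaptor of clathrin endocytosis. Sgip1 had a log2 intensity of 10.02 and 10.15 in cytokine PGCLCs, against 7.29 and 7.62 in mESCs, a change of 2.64 ± 0.12 (adjusted p = 2.67e-06). Esrp1, which sets epithelial patterns of splicing, had 11.10 and 11.04 in cytokine PGCLCs and 8.68 and 8.70 in mESCs, a change of 2.38 ± 0.09 (adjusted p = 8.75e-07). In both genes the groups were separated by several times the spread within a group. The nucleosome-binding protein gene Hmgn5 changed by 2.46 ± 0.09, with 10.52 and 10.58 in cytokine PGCLCs and 8.08 and 8.10 in mESCs. Cotl1, an actin-binding protein, changed by 2.19 ± 0.11, and Skil, a repressor that binds SMAD proteins, by 2.05 ± 0.15. Hbp1, a repressor of cell cycle genes, had 11.57 and 11.56 in cytokine PGCLCs and 9.62 and 9.42 in mESCs, a change of 2.04 ± 0.11 (adjusted p = 4.09e-06). Its 3 other probes gave changes of 2.02, 2.06 and 1.95. Further members of the list were the peroxisomal import gene Pex6 (1.94 ± 0.09), Pigh, which acts in making the glycolipid anchor of surface proteins (1.92 ± 0.10), Porcn, the acyltransferase that readies WNT proteins for secretion (1.89 ± 0.11), and Cebpd, a leucine zipper factor (1.84 ± 0.12). Nsd2, a methyltransferase acting on lysine 36 of histone H3, changed by 1.89 ± 0.13 on the probe used but by 0.99 and 0.32 on its other probes, so the size of its change is uncertain. The same holds for Pex6, whose other probes, both dim, gave 0.09 (not called) and 0.54, for Pigh, whose other probe, also dim, gave -0.005 (not called), for Tfap2c, whose other probes gave 0.99 and 3.19, and for Skil, whose other probe gave 1.45.

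The direct comparison with Nanog PGCLCs showed which of these increases differed between the PGCLC groups. In that test 760 genes (11.1%) were higher and 779 (11.4%) lower in cytokine PGCLCs. Of the 20 genes, Fam169b stood out. It read 9.10 and 9.11 in cytokine PGCLCs, 7.53 and 7.50 in Nanog PGCLCs, and 7.30 and 7.40 in mESCs, so that cytokine exceeded Nanog PGCLCs by 1.59 ± 0.09 (adjusted p = 1.8e-05). Dnd1, an RNA-binding protein needed by germ cells, was also higher in cytokine than in Nanog PGCLCs, by 1.00 ± 0.09, and Nsd2 by 0.83 ± 0.13. Hmgn5 went the other way, lower in cytokine than in Nanog PGCLCs by -1.22 ± 0.09 (adjusted p = 6.5e-05). For Rhox9, Esrp1, Skil, Pex6 and Ypel3 the difference between the PGCLC groups was not called, with values from -0.23 to 0.11.

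The largest decreases named enzymes, transporters and parts of the cytoskeleton. Stmn2, a protein that destabilises microtubules and is best known from neurons, had a log2 intensity of 7.08 and 7.32 in cytokine PGCLCs, against 10.13 and 10.12 in mESCs, a change of -2.92 ± 0.12 (adjusted p = 1.74e-06). Ddah1, which breaks down dimethylarginine, had 8.12 and 8.02 in cytokine PGCLCs and 10.96 and 10.88 in mESCs, a change of -2.85 ± 0.09. The cytokine PGCLC arrays were lower without overlap in both. The chemokine gene Ccl25 changed by -2.53 ± 0.11, the creatine transporter gene Slc6a8 by -2.32 ± 0.14, and Rab11fip5, an effector of recycling endosomes, by -2.27 ± 0.11. Idh1, the cytosolic isocitrate dehydrogenase that makes NADPH, had 8.23 and 8.40 in cytokine PGCLCs and 10.22 and 10.37 in mESCs, a change of -1.98 ± 0.11 (adjusted p = 4.26e-06). The gap junction gene Gja1 changed by -1.71 ± 0.11, the beta tubulin genes Tubb2b and Tubb6 by -1.72 ± 0.09 and -1.67 ± 0.12, and the keratin gene Krt42 by -2.10 ± 0.12. The other Tubb2b probes gave larger decreases, from -2.17 to -2.78. Tubb6 was close to its mESC level of 10.48 and 10.54 in Nanog PGCLCs, at 10.19 and 10.07, and cytokine lay under Nanog PGCLCs by -1.29 ± 0.12 (adjusted p = 0.00028). Glipr2 showed the same order of levels, at 7.67 and 7.93 in cytokine PGCLCs, 9.01 and 8.98 in Nanog PGCLCs, and 9.41 and 9.49 in mESCs.

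**Figure D2:**
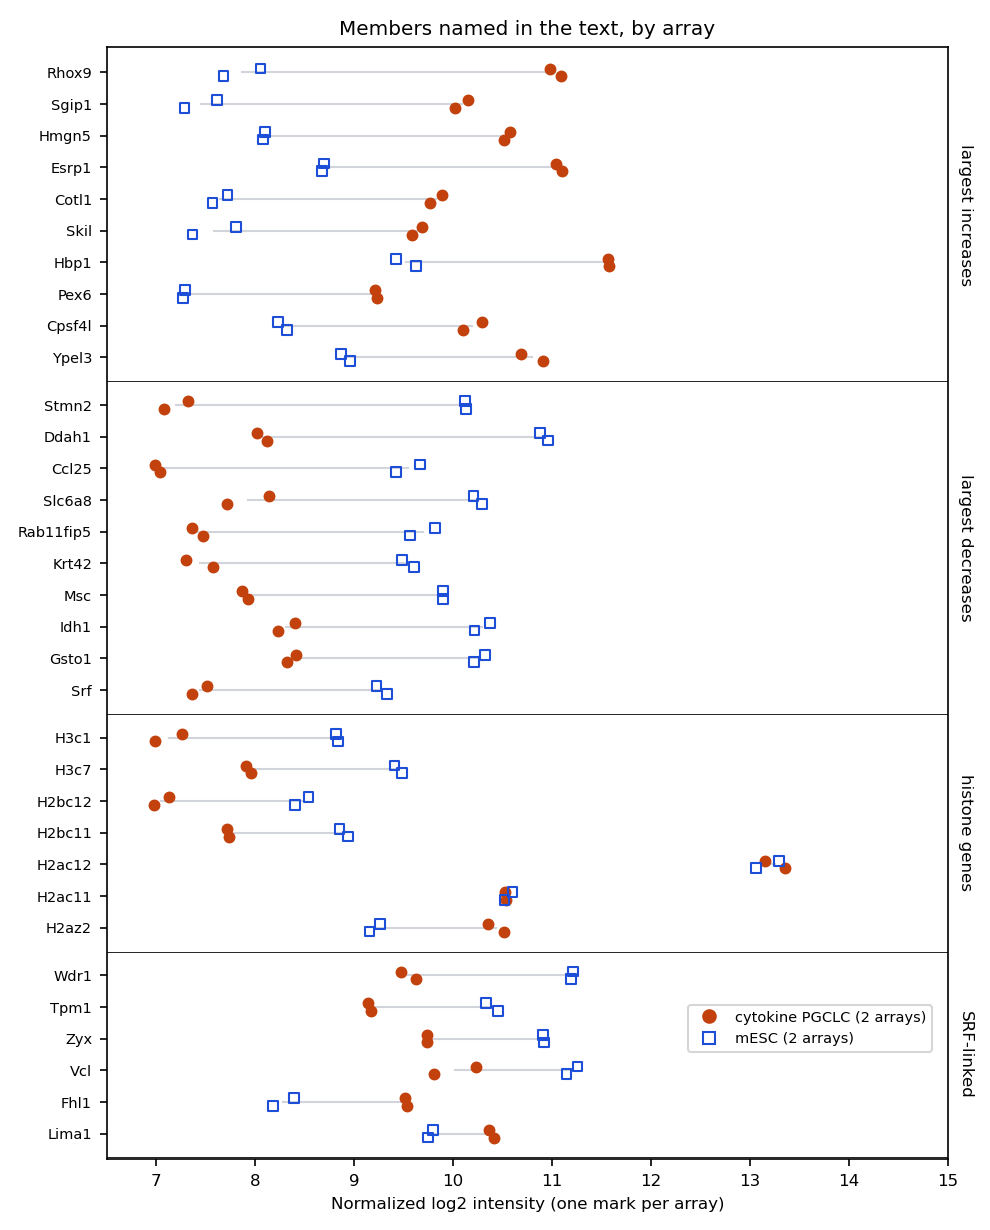
Normalized log2 intensity of 33 genes on each of the 2 cytokine PGCLC arrays (filled circles) and the 2 mESC arrays (open squares), with a line joining the group means. The groups do not overlap except at H2ac12 and H2ac11, where the marks of both groups lie together.

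Genes at background in a single group give bounds only. For these the fold is the bright mean over the higher of the dim signal and the lowest detected signal of each array, written as at least N-fold. The rule let such genes in through the group where they are bright. Their direction against mESCs, and the adjusted p-value of that change, is therefore no finding, here and below. The genes of largest fitted increase that were not detected in mESCs included Ccnd2, a D-type cyclin, at least 4.15-fold higher (adjusted p = 4.54e-06), and Slc40a1, the iron exporter ferroportin, at least 3.70-fold (adjusted p = 7.15e-07). Others were Car12, a surface carbonic anhydrase, at least 2.81-fold, Pygl, which releases glucose from glycogen, at least 2.76-fold, and Sct, the hormone secretin, at least 2.54-fold. Sptb, the red cell beta spectrin, was at least 2.47-fold higher, at 8.25 and 8.56 in cytokine PGCLCs, 6.98 and 7.31 in Nanog PGCLCs, and 5.60 and 5.61 in mESCs. Among genes not detected in cytokine PGCLCs, Scd1, a fatty acid desaturase, was at least 6.50-fold lower (adjusted p = 6.53e-07). Crxos, a homeobox gene, was at least 5.56-fold lower (its other probe changed by -0.95), Pcolce, an enhancer of procollagen processing, at least 5.01-fold, Sp5, a WNT-induced factor, at least 3.71-fold, and Sall3, a zinc finger factor, at least 2.96-fold. Cbr3, a carbonyl reductase, was at least 3.22-fold lower in cytokine PGCLCs, with 5.61 and 5.78 there, 7.59 and 7.23 in Nanog PGCLCs, and 8.62 and 8.54 in mESCs.

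Many genes of the actin cytoskeleton were lower, among them the gene of the factor that controls many of them. Serum response factor, encoded by Srf, binds the CArG box of actin and muscle genes together with coactivators that sense free actin. Srf had a log2 intensity of 7.36 and 7.52 in cytokine PGCLCs, against 9.33 and 9.23 in mESCs, a change of -1.84 ± 0.10 (adjusted p = 4.94e-06). The Nanog PGCLC arrays, at 7.69 and 7.82, did not differ from the cytokine PGCLC arrays by a called amount (-0.32 ± 0.10, adjusted p = 0.06). A list of cytoskeletal genes known to be regulated by the factor was added after these values were seen and is no independent evidence. Of its 20 tested genes, 2 were higher, 16 lower and 2 not called, with a median of -1.07, against 24.8% lower and a median of 0.011 over all genes tested. This count includes genes not detected in cytokine PGCLCs, whose direction the rule fixes. Among the 16 detected on all 4 arrays, 2 were higher, 12 lower and 2 not called, with a median of -0.858. Over all genes so detected, 26.3% were lower, with a median of -0.033. The smooth muscle actin gene Acta2 was at least 3.63-fold lower (adjusted p = 2.61e-05) and the myosin light chain gene Myl9 at least 2.85-fold lower (adjusted p = 9.82e-07). Flna, a crosslinker of actin filaments, was at least 2.07-fold lower. Wdr1, which helps cofilin take filaments apart, had 9.62 and 9.47 in cytokine PGCLCs and 11.19 and 11.21 in mESCs, a change of -1.65 ± 0.09, and Cfl1, which encodes cofilin, changed by -1.43 ± 0.11. The tropomyosin genes Tpm1 and Tpm4 changed by -1.24 ± 0.09 and -1.23 ± 0.10, and the focal adhesion genes Vcl and Zyx by -1.18 ± 0.16 and -1.18 ± 0.09. Fhl1, a LIM domain protein, was higher instead, at 9.53 and 9.51 in cytokine PGCLCs and 8.18 and 8.39 in mESCs (1.24 ± 0.11, adjusted p = 4.1e-05). The other member called higher was Lima1, an actin-bundling protein, at 0.62 ± 0.09. Myh9 (0.24 ± 0.11) and Tagln2 (0.18 ± 0.11) were not called. The partners S100a10 and Anxa2, which join membranes to actin, changed by -1.40 ± 0.09 and -1.31 ± 0.15.

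Promoters of 4 of these genes are shown because they hold the CArG box, in genes that were lower (Srf, Vcl, Myl9) and in 1 that was higher (Fhl1). They are RefSeq sequences of build GRCm38.p6, from 250 bases before to 50 after the gene start on the strand of the gene, with the CArG box on either strand in capitals.
Srf, chr17:46556113-46556412, minus strand: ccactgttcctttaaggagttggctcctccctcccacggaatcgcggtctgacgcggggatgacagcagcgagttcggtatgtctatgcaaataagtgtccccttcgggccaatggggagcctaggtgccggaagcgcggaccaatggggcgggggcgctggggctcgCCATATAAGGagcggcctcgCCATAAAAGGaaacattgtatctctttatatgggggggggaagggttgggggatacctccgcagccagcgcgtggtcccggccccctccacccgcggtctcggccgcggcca
Vcl, chr14:20929148-20929447, plus strand: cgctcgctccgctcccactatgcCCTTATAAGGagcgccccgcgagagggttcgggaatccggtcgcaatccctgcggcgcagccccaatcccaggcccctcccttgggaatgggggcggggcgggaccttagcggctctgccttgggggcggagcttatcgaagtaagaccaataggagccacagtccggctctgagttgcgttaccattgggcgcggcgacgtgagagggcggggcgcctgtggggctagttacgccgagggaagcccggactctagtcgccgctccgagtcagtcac
Myl9, chr2:156775214-156775513, plus strand: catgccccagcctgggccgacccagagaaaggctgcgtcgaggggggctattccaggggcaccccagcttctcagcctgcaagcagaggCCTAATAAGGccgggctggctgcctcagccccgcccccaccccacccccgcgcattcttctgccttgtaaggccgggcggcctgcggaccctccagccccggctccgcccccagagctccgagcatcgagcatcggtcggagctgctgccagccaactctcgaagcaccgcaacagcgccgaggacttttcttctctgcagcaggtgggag
Fhl1, chrX:56779433-56779732, plus strand: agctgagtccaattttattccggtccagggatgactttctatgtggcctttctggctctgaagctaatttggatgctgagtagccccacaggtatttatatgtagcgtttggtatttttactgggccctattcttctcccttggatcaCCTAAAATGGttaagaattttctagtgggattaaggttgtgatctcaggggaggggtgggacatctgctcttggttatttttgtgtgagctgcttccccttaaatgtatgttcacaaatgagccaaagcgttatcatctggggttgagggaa
The box was present in 5 of the 18 listed genes with a promoter in the table (27.8%), against 1.81% of all 27025 genes with one. Those 5 were Srf, Vcl and Myl9, which were lower, and Fhl1 and Lima1, which were higher. The Srf promoter held it 2 times and each of the others shown held it 1 time. The list was chosen as genes regulated by the factor that binds this box, so the share of the box in it is no finding. A match describes these letters only.

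Histone genes were lower in some classes and not in others. Most canonical histone genes lie in clusters and are transcribed in S phase, while the variant genes lie elsewhere and are expressed throughout the cycle. Of 43 tested histone genes, 3 were higher, 23 lower and 17 not called, beside 29.9% higher and 24.8% lower over all genes tested. Among the 35 detected on all 4 arrays, 2 were higher, 19 lower and 14 not called. All 7 H3 genes of the clusters were lower (median -1.49) and all 7 H2B genes (median -1.17), as were 4 of 6 H4 genes and 2 of 3 H1 genes. The 7 H3 genes were detected on all 4 arrays, and so were the H2B genes except H2bc9 and H2bc18. Not all of the lower H4 and H1 genes were. Of 11 clustered H2A genes only H2ac4 was lower. The H3 gene H3c1 had a log2 intensity of 6.99 and 7.26 in cytokine PGCLCs, against 8.84 and 8.81 in mESCs (-1.70 ± 0.11, adjusted p = 9.93e-06). H3c7 had 7.96 and 7.91 in cytokine PGCLCs and 9.48 and 9.41 in mESCs (-1.51 ± 0.09). H2az2, a variant of H2A, moved the other way, at 10.51 and 10.35 in cytokine PGCLCs and 9.15 and 9.26 in mESCs (1.22 ± 0.10, adjusted p = 3.24e-05). None of the 7 H3 genes and 1 of the 7 H2B genes was called in the direct test against Nanog PGCLCs. Histone paralogs are nearly identical in sequence, so a probe may read several of them and single genes are uncertain.

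The H2A and H2B genes of the clusters often stand head to head, which allowed a comparison within pairs, made after the values were seen. H2ac11 and H2bc11 start 249 bases apart. H2ac11 read 10.54 and 10.53 in cytokine PGCLCs and 10.52 and 10.60 in mESCs (-0.03 ± 0.09), whereas H2bc11 read 7.74 and 7.71 in cytokine PGCLCs and 8.94 and 8.85 in mESCs (-1.17 ± 0.10, adjusted p = 3.16e-05). H2ac12 and H2bc12, 178 bases apart, changed by 0.08 ± 0.11 and -1.42 ± 0.11. H2ac7 and H2bc7, 174 bases apart, changed by 0.02 ± 0.09 and -1.15 ± 0.09. In all 3 pairs the H2B gene was called lower and the H2A gene was not called. The H2A probes were the brighter ones, between 7.72 and 14.72 in mESCs against 7.45 and 9.15 for H2B, and H2ac7 at 14.50 lies near the top of the scale, where changes may be compressed. H2ac11 had a mean of 10.56 in mESCs, but its probe may read other H2A genes as well. The part of compression or of shared probes in these values was not tested.

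**Figure D3:**
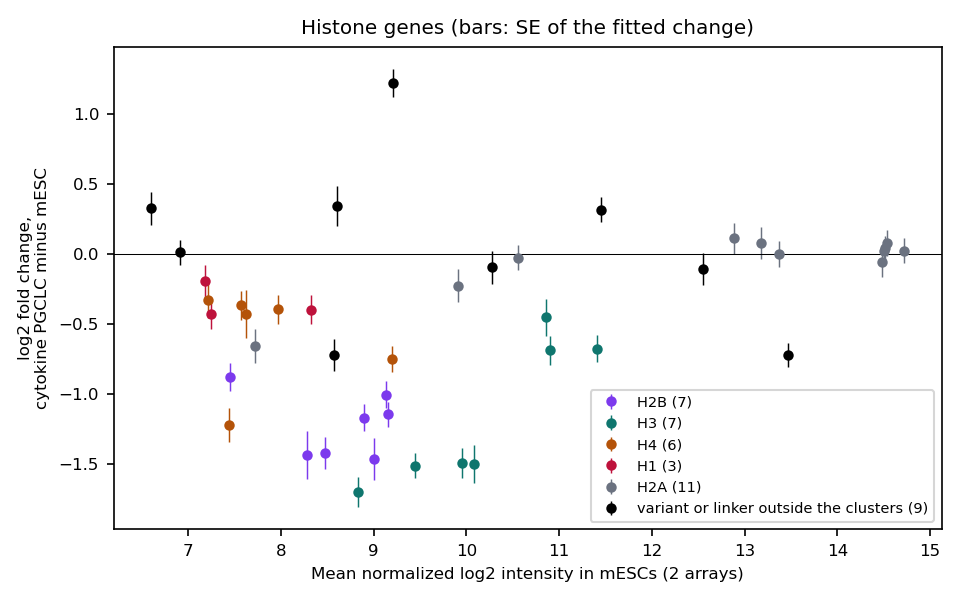
Change of each of 43 histone genes (vertical axis, log2 cytokine PGCLC minus mESC, bars are SE) against its mean log2 intensity in mESCs (horizontal axis), coloured by class. All 7 H2B and all 7 H3 genes lie below 0, and most H2A genes lie at 0 at the bright end.

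Promoters of 2 of the lowered H2B genes are shown with the core of the octamer element, TTTGCAT, in capitals, the motif through which OCT1 acts on H2B genes. The first covers the stretch shared with H2ac12. The sequences are from RefSeq, build GRCm38.p6, as above.
H2bc12, chr13:22035571-22035870, plus strand: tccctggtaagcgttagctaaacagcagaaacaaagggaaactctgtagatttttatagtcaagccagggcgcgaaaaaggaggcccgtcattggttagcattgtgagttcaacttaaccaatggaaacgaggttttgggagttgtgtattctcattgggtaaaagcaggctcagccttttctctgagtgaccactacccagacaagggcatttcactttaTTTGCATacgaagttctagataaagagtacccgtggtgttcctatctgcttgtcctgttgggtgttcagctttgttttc
H2bc18, chr3:96269450-96269749, plus strand: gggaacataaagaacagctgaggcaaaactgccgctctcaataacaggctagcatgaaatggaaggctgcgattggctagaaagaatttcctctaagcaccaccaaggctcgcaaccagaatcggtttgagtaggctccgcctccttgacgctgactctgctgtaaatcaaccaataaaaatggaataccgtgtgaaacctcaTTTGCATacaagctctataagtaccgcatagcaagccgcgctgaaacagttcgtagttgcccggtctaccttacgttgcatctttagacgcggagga
The core, searched on both strands, was found in 3 of 6 H2B promoters (H2bc12, H2bc18 and H2bc6), against 5.24% of all genes with a promoter. It was also found in 4 of 15 H2A promoters, a set that includes variant genes (H2ac12, H2ac20, H2ac4 and the variant H2aw). H2bc18 was at least 1.48-fold lower (adjusted p = 0.000172), and H2bc6 read 8.17 and 8.10 in cytokine PGCLCs and 9.20 and 9.07 in mESCs (adjusted p = 8.1e-05).

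Genes of lipid synthesis were mostly lower. Of 14 tested cholesterol synthesis genes, 0 were higher, 10 lower and 4 not called, with a median of -0.86, beside 24.8% lower over all genes tested. This count includes genes at background in cytokine PGCLCs, whose direction the rule fixes. Among the 10 detected on all 4 arrays, 0 were higher, 7 lower and 3 not called, with a median of -0.734. Over all genes so detected, 26.3% were lower. Sqle, which makes squalene epoxide, had a log2 intensity of 9.46 and 9.62 in cytokine PGCLCs, against 10.58 and 10.55 in mESCs (-1.03 ± 0.11, adjusted p = 0.000126). Nsdhl, a later enzyme of the pathway, was at least 1.83-fold lower, and Lss, which closes the sterol rings, changed by -0.70 ± 0.10. Cyp51 changed by -1.18 ± 0.11 and Insig1, which retains the sterol-sensing complex in the endoplasmic reticulum, by -1.36 ± 0.09, its probe being detected on 1 of the 2 cytokine PGCLC arrays. Of 9 fatty acid synthesis genes, 1 was higher, 7 lower and 1 not called, and of the 8 detected on all 4 arrays 1 was higher and 6 lower. The member called higher was Acsl3, which activates long fatty acids (0.97 ± 0.10, adjusted p = 0.000126).

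Promoters of Cyp51 and Insig1 are shown because all 11 cholesterol genes with a promoter in the table held a CCAAT box, against 41.1% of all genes. Of these 11 genes, 7 were lower. The box was also present in 10 of 13 promoters of mitosis genes (76.9%), of which 4 were higher and 2 lower. The sterol regulatory element, searched as TCACNCCAC, was found in 0 of the 11, against 1.44% of all genes, a statement about these letters in this window. CCAAT on either strand is in capitals, and the sequences are from RefSeq, build GRCm38.p6.
Cyp51, chr5:4104648-4104947, minus strand: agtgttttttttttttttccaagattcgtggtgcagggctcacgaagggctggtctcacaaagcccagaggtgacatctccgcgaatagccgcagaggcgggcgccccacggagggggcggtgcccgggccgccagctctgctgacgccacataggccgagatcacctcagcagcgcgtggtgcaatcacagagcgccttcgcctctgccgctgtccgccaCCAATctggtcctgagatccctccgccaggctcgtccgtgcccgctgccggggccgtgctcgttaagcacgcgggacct
Insig1, chr5:28071162-28071461, plus strand: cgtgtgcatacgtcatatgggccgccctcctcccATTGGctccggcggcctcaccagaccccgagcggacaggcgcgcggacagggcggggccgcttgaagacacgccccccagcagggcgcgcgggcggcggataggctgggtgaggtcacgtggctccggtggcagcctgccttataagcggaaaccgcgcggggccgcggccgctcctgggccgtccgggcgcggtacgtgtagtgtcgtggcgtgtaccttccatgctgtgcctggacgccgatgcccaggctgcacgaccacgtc

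Enzymes that feed and run the tricarboxylic acid cycle were not called in most cases. Of 18 tested genes, 2 were higher, 5 lower and 11 not called. Idh3a, the catalytic subunit of mitochondrial isocitrate dehydrogenase, had a log2 intensity of 7.12 and 6.92 in cytokine PGCLCs, 7.88 and 7.79 in Nanog PGCLCs, and 8.36 and 8.30 in mESCs, a change against mESCs of -1.31 ± 0.10 (adjusted p = 2.48e-05), while its other probe, near background, was not called (-0.33). Pdha1, a subunit of pyruvate dehydrogenase, changed by -0.63 ± 0.10. Respiratory chain genes were called higher at about the share of all genes. Of 31 complex I subunit genes, 11 were higher, 4 lower and 16 not called, and of 12 cytochrome oxidase genes 5 were higher, 0 lower and 7 not called, beside 29.9% higher over all genes tested. Ndufa6 had 12.06 and 12.15 in cytokine PGCLCs and 11.15 and 11.19 in mESCs (0.93 ± 0.10, adjusted p = 0.000115). Cox6b2, a testis form of a cytochrome oxidase subunit, had 9.78 and 9.99 in cytokine PGCLCs and 8.93 and 8.94 in mESCs (0.96 ± 0.11), and Cox7a1, known from heart and muscle, changed by 0.79 ± 0.12. Of 68 mitochondrial ribosomal protein genes, 8 were higher and 19 lower (27.9%), near the 24.8% of all genes, and of 54 cytosolic ribosomal protein genes 4 were higher, 4 lower and 46 not called. No proteasome subunit gene among 29 was called higher and 9 were lower, a count that was 4 or 5 when any of the 4 arrays was left out.

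In the one-carbon and serine list of 12, 1 was higher, 6 lower and 5 not called, beside 29.9% higher and 24.8% lower over all genes tested. Phgdh, which opens the serine pathway, had a log2 intensity of 7.84 and 7.65 in cytokine PGCLCs, against 9.02 and 8.68 in mESCs (-1.11 ± 0.18, adjusted p = 0.00106). Cth, which makes cysteine, changed by -1.11 ± 0.11, Shmt2, the mitochondrial serine hydroxymethyltransferase, by -0.67 ± 0.11, and Ahcy, which removes S-adenosylhomocysteine, by -0.64 ± 0.09. Gldc, which cleaves glycine, was the member called higher (0.29 ± 0.10), on 1 of its probes and not on the other (0.19). Of 25 glutathione and oxidative stress genes, 5 were higher, 12 lower and 8 not called, and with arrays scaled to a common median 6 were higher and 8 lower. These counts include genes at background in 1 group, whose direction the rule fixes. Among the 20 detected on all 4 arrays, 4 were higher, 8 lower and 8 not called. Gss, the last enzyme of glutathione synthesis, had 6.53 and 6.63 in cytokine PGCLCs, where this probe was not detected, and 8.61 and 8.69 in mESCs, at least 3.39-fold lower (adjusted p = 2.41e-06). Its other probes gave -1.60, -1.55 and -0.20, the last not called. Nqo1, a quinone reductase, was at least 2.10-fold lower. Different glutathione transferases moved in different directions, with Gsto1 at -1.90 ± 0.14, Gstm1 at 1.27 ± 0.09 and Gstm5 at 1.15 ± 0.12. Gpx4, the peroxidase that protects lipids, was higher at 0.83 ± 0.09.

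Cell cycle genes were called in both directions. Of 29 genes of G1 and S phase, 8 were higher, 10 lower and 11 not called, near the 29.9% higher and 24.8% lower over all genes tested. Among the cyclins, Ccnd2 was at 9.13 and 9.18 in cytokine PGCLCs, 6.30 and 6.62 in Nanog PGCLCs, and 6.93 and 6.74 in mESCs. Ccnd1 was lower, at 9.94 and 9.87 in cytokine PGCLCs, 9.18 and 9.03 in Nanog PGCLCs, and 11.28 and 11.41 in mESCs (-1.44 ± 0.10, adjusted p = 1.34e-05). Both D-type cyclins were thus higher in cytokine than in Nanog PGCLCs, Ccnd2, not detected there, at least 4.82-fold and Ccnd1 by 0.80 ± 0.10 on the log2 scale. Ccne1, a cyclin of S phase entry, changed by -1.27 ± 0.14, and Rb1, the retinoblastoma repressor, by 1.38 ± 0.18, its probe being detected on 1 of the 2 mESC arrays. Of 16 mitosis genes, 5 were higher, 3 lower and 8 not called. Top2a, which untangles chromosomes, had 11.44 and 11.39 in cytokine PGCLCs and 10.33 and 10.25 in mESCs (1.12 ± 0.09, adjusted p = 3.01e-05, and 0.42 on another probe), and the spindle genes Kif11 and Nusap1 changed by 0.73 ± 0.10 and 0.58 ± 0.09.

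Of 15 tested epithelial genes, 10 were higher, 2 lower and 3 not called, a count that rests on genes at background in mESCs, whose direction the rule fixes. Among the 6 detected on all 4 arrays, 2 were higher (Esrp1 and Pkp2), 2 lower (Cdh1 and Spint1) and 2 not called, with a median of 0.005. The other probes of Pkp2 gave 0.06 and -0.003, neither of them called, so its call depends on the probe. Krt8, a keratin of simple epithelia, had a log2 intensity of 8.34 and 8.37 in cytokine PGCLCs, against 7.39 and 7.15 in mESCs (1.09 ± 0.11, adjusted p = 7.75e-05), and was detected on 1 of the 2 mESC arrays. Of the 10, 6 were not detected in mESCs, among them the claudin genes Cldn6 and Cldn3, each at least 1.30-fold higher, and placental cadherin Cdh3, at least 1.16-fold. Cdh1, the epithelial cadherin, was lower, at 9.52 and 9.62 in cytokine PGCLCs and 9.85 and 10.35 in mESCs (-0.53 ± 0.15, adjusted p = 0.0189). The intermediate filament gene Vim changed by -1.42 ± 0.13 against mESCs but was at least 1.60-fold higher in cytokine than in Nanog PGCLCs, where it was not detected. Of 22 lysosome and autophagy genes, 9 were higher, 4 lower and 9 not called, with a median of 0.044, beside 29.9% higher and 24.8% lower over all genes tested. Hexa, a lysosomal hexosaminidase, had a mean of 8.94 in cytokine PGCLCs and 7.37 in mESCs (1.57 ± 0.10, adjusted p = 9.93e-06), and Gabarap, which builds autophagosomes, changed by 0.94 ± 0.09. The tetraspanin gene Cd63 was lower at -1.53 ± 0.12.

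**Figure D4:**
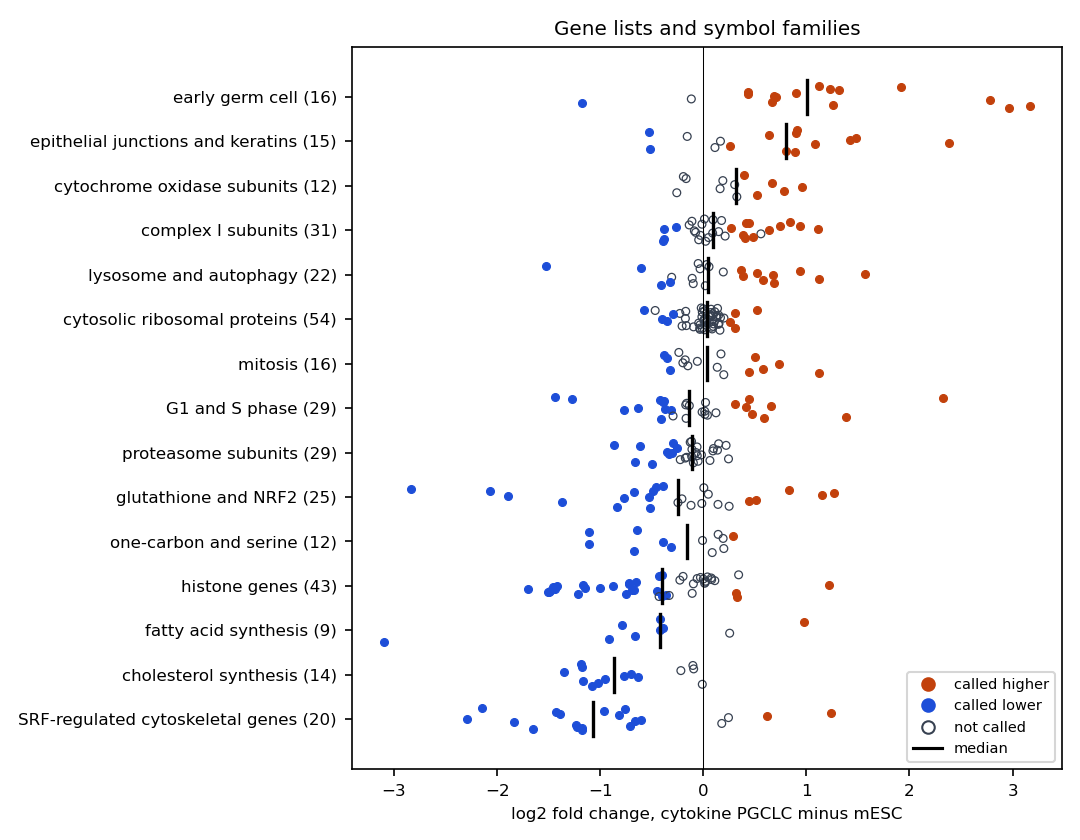
Log2 change (cytokine PGCLC minus mESC, horizontal axis) of every tested gene of 15 lists, with the number tested in brackets. Filled points were called higher or lower, open points were not called, and the vertical bar is the list's median. The cholesterol and SRF-linked lists have medians of -0.86 and -1.07, and ribosomal protein genes gather around 0. Over the genes of those lists detected on all 4 arrays, the medians are -0.734 (cholesterol) and -0.858 (SRF-linked).

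Iron genes were called in both directions. Tfrc, the transferrin receptor, had a log2 intensity of 11.85 and 11.85 in cytokine PGCLCs, against 10.87 and 10.99 in mESCs (0.92 ± 0.10, adjusted p = 0.000115). Ppox, an enzyme of heme synthesis, was at least 1.46-fold higher. Ftl1, the ferritin light chain, was lower at -0.49 ± 0.10, and Hmox1, which degrades heme, at -0.77 ± 0.11. Over the 15 tested iron and heme genes 5 were higher, 3 lower and 7 not called, beside 29.9% higher and 24.8% lower over all genes tested, and among the 11 detected on all 4 arrays 2 were higher and 3 lower. With detection required on all 6 arrays and a new choice of probe, 2 were higher and 4 lower. The globin markers described above were detected in the same arrays.

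Of 29 listed genes of the later germline and meiosis, 8 could be tested, and of these 1 was higher, 3 lower and 4 not called, beside 29.9% higher over all genes tested. Of 16 tested early germ cell genes 14 were higher, and the difference between the lists was not tested. Tex19.1, which restrains retrotransposons, had a log2 intensity of 9.75 and 9.66 in cytokine PGCLCs, against 11.26 and 11.22 in mESCs (-1.53 ± 0.10, adjusted p = 9.04e-06). Tdrd12, which acts in the piRNA pathway, changed by -1.26 ± 0.09, Ddx4, the germ cell helicase, by -0.36 ± 0.10, and Dazl by 0.01 ± 0.10, which was not called. Cleavage-stage genes differed among themselves. Khdc3 changed by -3.20 ± 0.14, its probe being detected on 1 of the 2 cytokine PGCLC arrays, while Ooep and Tle6, which encode partners of the same maternal complex, were higher at 0.72 ± 0.11 and 1.11 ± 0.10. Zscan4c, a marker of a transient stem cell state, was at least 2.79-fold higher in cytokine PGCLCs than in mESCs and at least 3.24-fold higher than in Nanog PGCLCs, being detected in neither of those groups. Among chromatin genes, Uhrf2 was higher (1.31 ± 0.09, adjusted p = 1.63e-05), while its relative Uhrf1, which brings DNMT1 to replicating DNA, was lower (-0.69 ± 0.10), as was the oxidase gene Tet1 (-0.62 ± 0.10). Of 22 histone modifier genes linked to the germ cell transition 6 were higher, 5 lower and 11 not called.

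Targets of ERK and WNT signals were called in both directions. Dusp6, a phosphatase induced by ERK, had a log2 intensity of 10.70 and 10.70 in cytokine PGCLCs, 10.21 and 10.08 in Nanog PGCLCs, and 8.96 and 9.07 in mESCs (1.69 ± 0.09, adjusted p = 5.26e-06). Egr1, an immediate early gene, was at least 2.41-fold higher. Over 10 ERK target genes 5 were higher, 2 lower and 3 not called, beside 29.9% higher and 24.8% lower over all genes tested. Among the 7 detected on all 4 arrays, 3 were higher, 1 lower and 3 not called. Axin2, a target and inhibitor of WNT signalling, had 8.60 and 8.61 in cytokine PGCLCs, 6.15 and 6.03 in Nanog PGCLCs, and 7.61 and 7.85 in mESCs. It was therefore higher in cytokine PGCLCs than in mESCs by 0.88 ± 0.11 (adjusted p = 0.000261), and at least 3.29-fold higher than in Nanog PGCLCs, where it was not detected (adjusted p = 9.02e-06). Sp5 and Ccnd1, also WNT targets, moved the other way against mESCs, as given above. Of the 1959 member genes higher than in mESCs, 420 were also higher than in Nanog PGCLCs, 172 were lower than there and 1367 were not called against them. Of the 1642 lower ones, 105 were higher, 297 lower and 1240 not called against Nanog PGCLCs, and both comparisons share the cytokine PGCLC arrays.

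Calls were uneven among chromosomes, and chromosome 14 had the highest share of lower calls. Among genes detected on all 4 arrays, 25.6% were higher and 26.3% lower, and on chromosome 14, with 196 such genes, 33 were higher (16.8%) and 80 lower (40.8%). The median change there was -0.200, which is -0.167 relative to all genes and ranged from -0.113 to -0.207 relative to them over the alternatives tried. In each of the 5 stretches of 10 Mb of chromosome 14 that held at least 20 genes, the median was below 0, from -0.125 to -0.487. Nanog PGCLCs minus mESCs had a median of -0.269 on chromosome 14, a value that shares its mESC arrays. The next lowest medians were those of chromosomes 3 and 13, at -0.104 and -0.088. Shares differed elsewhere too, with 33.6% of genes lower on chromosome 3, 19.7% lower on chromosome 17 and 32.7% higher on chromosome X. This is a description with no test, and chromosome 14 was picked out after the values were seen.

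**Figure D5:**
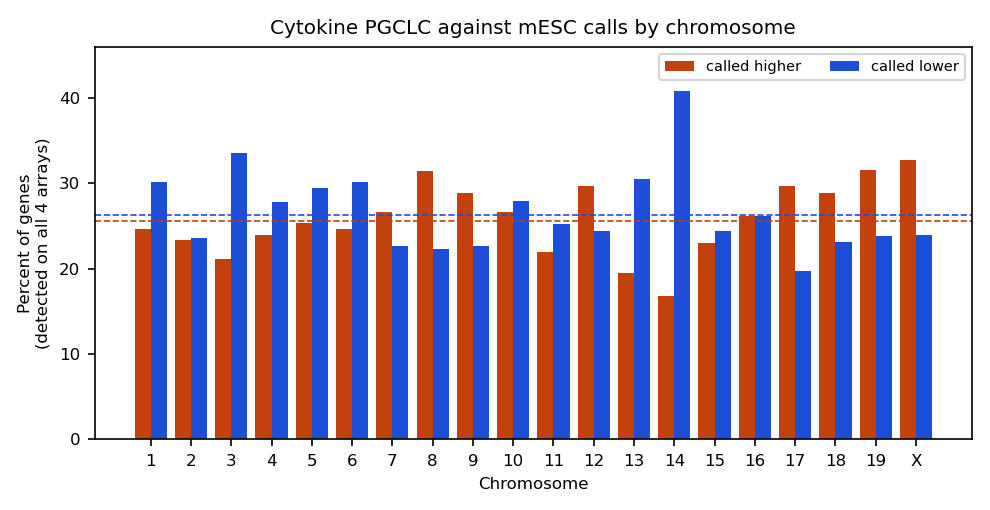
Percent of genes called higher and lower in cytokine PGCLCs against mESCs on each chromosome, over genes detected on all 4 arrays. Dashed lines give the shares over all chromosomes, 25.6% higher and 26.3% lower, and chromosome 14 has the highest share of lower calls, 40.8%.

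The brightest genes differed little in signal, but signals near the top of the scale may be compressed, so changes there may be understated. The 10 genes with the highest mean over the 4 arrays were Rps12, Rplp1, Rps2, Dppa5a, Rpl41, Rps29, Eef1a1, H2ac24, Tuba1b and Rpl9, and none was called, with changes from -0.21 (Tuba1b) to 0.11 (Dppa5a). The cytoplasmic actin gene Actb, a common reference for expression, was lower, at 13.22 and 13.12 in cytokine PGCLCs and 14.03 and 13.82 in mESCs (-0.76 ± 0.11, adjusted p = 0.000555). Its other probes gave changes from -1.04 to 0.29, so the size of its change depends on the probe.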

How the data were processed

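RNA of 6 samples was hybridised to Illumina mouse BeadChips, 2 arrays per labelled group, a number that limits the precision. The deposited intensity values are linear summaries per probe, and the values show no sign of background correction or normalization. Detection p-values, deposited beside them per the file headers, rank probes among negative controls. The authors' log2 value table (11542 probes, each detected on 1 array or more) served as an alternative. The submitters' processing notes name limma with no version, and do not give the authors' background treatment.

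Here, normexp (limma 3.58.1, R 4.3.3) used negative controls inferred from the detection p-values (936) and an offset of 16, followed by quantile normalization and log2. Named probes detected on at least 2 of the 6 arrays (9314 of 45281) were kept, each gene was read by its brightest one, and the 6823 genes were fitted with lmFit and eBayes in 1 model of 3 groups (residual degrees of freedom 3, prior 5.16). All tests, two-sided, were adjusted by Benjamini-Hochberg over all genes and called below 0.05. Probe names came from the platform annotation, with 10050 of 10057 named probes matched to RefSeq. For 44 called genes a second probe was called the other way.

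Named genes were the 20 largest increases and decreases detected on all 4 arrays with at least 2-fold change and separated arrays, the 15 largest each way not detected in the dimmer group, the members of lists with 20 or fewer tested genes, up to 5 per direction of longer lists, the 10 brightest genes and the markers. Single H2A and H2B genes, H2ac4 included, and Hbb-bs and Hbb-bt were chosen after their values were seen. The members and lists were chosen with earlier results of these data known. Equal replicate numbers did not pair the samples (correlations of deviations between -0.004 and 0.079). Motifs were sought in 300-base RefSeq promoters. The fit was tested on simulated data.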

Additional observations from a re-analysis of the deposited data

Results flagged for a closer look

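Probes without a gene name lay outside the comparisons of genes. Of 1355 such probes kept by the same filter, 361 were called higher and 319 lower in cytokine PGCLCs, and 108 were called at least 2-fold higher and 41 at least 2-fold lower. The largest fitted increase, on probe ILMN_1256343, had a log2 intensity of 11.43 and 11.51 in cytokine PGCLCs and 6.46 and 6.24, not detected, in mESCs, at least 20.6-fold higher (limma adjusted p = 3.44e-07). The largest decrease, on probe ILMN_1230073, had 10.17 and 10.04 in cytokine PGCLCs and 13.89 and 13.90 in mESCs (-3.79, limma adjusted p = 4.06e-06). Their genes were not identified here.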

How the results depend on the processing

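Counts of genes called higher stayed within 1.5 times of 2040 under every alternative run, and those called lower within 1.5 times of 1694 except with median scaling (973 lower, 2611 higher), which put the median change of all genes at 0.162, against 0.011. Counts of genes at least 2-fold higher and lower were 93 and 72 without background correction, 92 and 83 with the authors' value table, and 177 and 141 with detection required on all 6 arrays, which tests fewer genes, against 476 and 249. Leaving out 1 cytokine PGCLC or mESC array at a time gave 1584 to 1793 genes higher, 1216 to 1426 lower, 467 to 479 at least 2-fold higher and 246 to 259 at least 2-fold lower. Members called against Nanog PGCLCs (758 higher, 674 lower) ranged from 287 to 782 higher and from 279 to 699 lower with 1 of these arrays left out. They were 287 and 279 without cytokine PGCLC replicate 1, 314 and 295 without cytokine PGCLC replicate 2, and 476 were higher with median scaling. With the replicate number as a block, which the labels do not tie to pairs, 2038 genes were higher and 1693 lower. Directions reversed with the mean of probes for Atp5j (-0.32), Foxh1 (0.0526), Impact (-0.47), Nanog (-0.27) and Suclg2 (-0.0465), with the authors' value table for Col9a3 (-0.0227), and for Hba-a1, as a fitted value against 1 mESC array, with the other left out (2.53 without replicate 1, -2.53 without replicate 2). The cause of these changes was not tested. A fit with no detection filter was not run separately, since the named probes are those of the authors' table, each detected on at least 1 array. Dim genes give bounds only, and the brightest may be compressed.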
